A study of Mus musculus with 2 samples.

Results

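Adult oviduct epithelial cells in which the mRNA of Wt1 was counted were set against cells of the same cluster in which it was not. The cells came from the 2 main clusters of the adult library, numbered 0 and 1 by the authors, and 313 of the 669 cells of the series belong to them. A cell counts as Wt1-positive with 1 or more unique molecular identifiers (UMI, 1 per captured mRNA molecule) of Wt1, and as Wt1-negative with 0. Cluster 0 holds 80 Wt1-positive and 50 Wt1-negative cells, and cluster 1 holds 105 and 78. The sides were thus chosen by a measured value, and the Wt1 counts below are a description of that choice. Of the 406 adult barcodes, 401 were deposited under 2 column prefixes, and each was used once; 0 barcodes are shared with the library of the other age.

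The series is single-cell RNA sequencing of mouse oviduct (strain C57BL/6), with 1 library of adult mice at estrus (406 cells) and 1 library at postnatal day 4 (P4, 263 cells). Per the labels, the tissue was dissociated with enzymes, dead cells were removed and epithelial cells were enriched by sorting with antibodies to Epcam and CD45. All cells compared here share that library, strain, stage and sort, and the labels do not say how many mice gave the cells. With 1 library there is no test between groups of cells, and the intervals given cover counting error only.

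Wt1 encodes a zinc finger transcription factor best known for its part in the formation of the kidney, the gonads and the mesothelium. In the oviduct it has been used as a marker of the end nearest the ovary. Secretory cells of the oviduct lining make the fluid that surrounds the egg and embryo, and multiciliated cells move it. Cells of cluster 0 carried secretory markers: in the matched cells described below, the oviductal glycoprotein gene Ovgp1 stood at 42.9 UMI per 10000 in Wt1-positive cells and 63.8 in Wt1-negative cells. Cells of cluster 1 carried multiciliated markers: Foxj1, the master regulator of motile cilia, stood at 7.04 UMI per 10000 in Wt1-positive cells and 6.82 in Wt1-negative cells.

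Wt1 lies on chromosome 2 (GRCm38, chr2:105126529-105173616, plus strand). Both clusters carried it at nearly the same pooled level, 3.84 UMI per 10000 in cluster 0 (95% Poisson interval 3.32 to 4.42) and 3.87 in cluster 1 (3.38 to 4.40). It was detected in 61.5% of the 130 cells of cluster 0 (exact 95% interval 52.6 to 69.9) and in 57.4% of the 183 cells of cluster 1 (49.9 to 64.6). The smaller adult clusters 3, 4 and 5 had it in 9 of 37, 5 of 31 and 7 of 25 cells, at pooled levels of 1.38, 1.47 and 2.05 UMI per 10000. No cell type known to lack Wt1 was present in number, so a background share from free RNA was not measured.

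Wt1-positive and Wt1-negative cells differed first of all in depth. In cluster 0 the median cell held 4970 UMI with Wt1 and 1273 UMI without, and in cluster 1 it held 3811 and 1004 UMI. Among the shallowest of 5 equal bins of cells, 19.2% of cluster 0 and 10.8% of cluster 1 had a Wt1 UMI, and among the deepest 92.3% and 86.5% had one. If each cell had its cluster's pooled Wt1 level, counting alone would leave 43.0 cells of cluster 0 at 0, against 50 observed, and 71.0 cells of cluster 1, against 78 observed. A cell without a Wt1 UMI is thus not shown to be a cell without Wt1. The bin farthest from that line was the second of cluster 0 (1207 to 2827 UMI), where 23.1% of cells had a Wt1 UMI (9.0 to 43.6) and 49.4% was the share from counting.

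**Figure D1:**
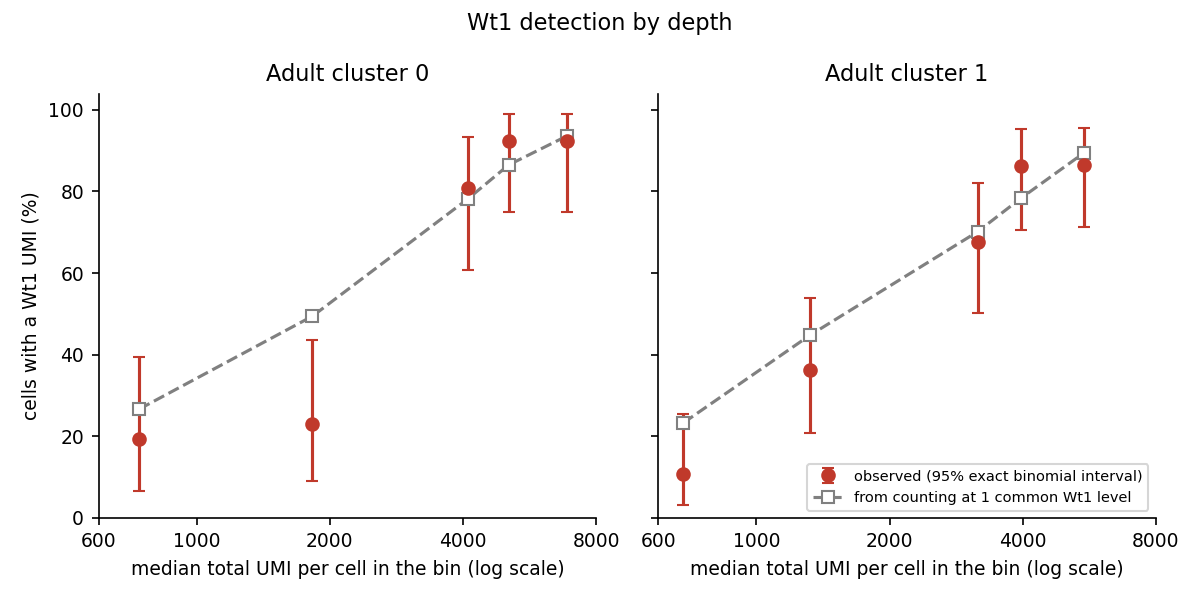
Share of cells with a Wt1 UMI (vertical axis, %) against the median total UMI of 5 bins of cells (horizontal axis, log scale) in adult clusters 0 and 1. Red points are observed shares with exact 95% binomial intervals, and open squares are the shares from counting if every cell had its cluster's pooled Wt1 level; the points climb with depth, to 92.3% in cluster 0 and 86.5% in cluster 1.

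At the edge of the rule, 22 Wt1-positive cells of cluster 0 and 49 of cluster 1 had a single Wt1 UMI, and the highest numbers in a cell were 8 and 13. The deepest cell at 0 held 6217 UMI in cluster 0. In cluster 1 it held 12124 UMI, where the pooled level would give 4.69 Wt1 UMI. Of the barcodes deposited in a pair of columns, 3 in cluster 0 and 2 in cluster 1 had a Wt1 UMI in 1 column and none in the other.

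In cluster 0 the sides also differed in where the authors' clustering of both ages together put them. Of its cells, 79 carried merged number 2 (median 5000 UMI) and 67 of these had a Wt1 UMI, or 84.8%. Another 49 carried merged number 4 (median 1186 UMI) and 11 of these had one, or 22.4%. The pooled Wt1 level was 4.04 UMI per 10000 (3.47 to 4.69) under merged number 2 and 2.35 (1.32 to 3.88) under merged number 4, so the intervals overlap. In cluster 1, 178 of 183 cells carried merged number 0.

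To compare genes at like depth, Wt1-positive and Wt1-negative cells nearest in total UMI within a bin were paired 1 to 1, and cells left without a partner were dropped. This gave 20 pairs in cluster 0 (58225 UMI with Wt1 and 58317 without) and 39 pairs in cluster 1 (113601 and 114340 UMI). The dropped cells were mostly deep ones on the Wt1-positive side and shallow ones on the Wt1-negative side: in the shallowest bin 5 of 21 Wt1-negative cells of cluster 0 and 4 of 33 of cluster 1 had a partner. The sides of these pairs were alike in general measures. Mitochondrial genes took 4.32% of UMI in Wt1-positive and 4.76% in Wt1-negative cells of cluster 0, and 4.81% and 4.90% in cluster 1. Ribosomal protein genes took 24.5% and 24.9% in cluster 0 and 9.14% and 9.91% in cluster 1. Epcam, the adhesion protein used in the sort, stood at 5.67 UMI per 10000 with Wt1 and 6.17 without in cluster 0, and at 3.08 and 3.85 in cluster 1.

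Beyond Wt1 itself, 843 genes were measured in cluster 0 and 2068 in cluster 1, meaning a UMI in at least 10% of cells on either side and 20 or more UMI over both. Of these, 35 were at least 2-fold higher in Wt1-positive cells of cluster 0 (4.15%) and 32 at least 2-fold lower (3.8%). In cluster 1, 67 were higher (3.24%) and 51 lower (2.47%). Folds here have 0.1 UMI per 10000 added to each level. Of the 744 genes measured in both clusters, 4 were at least 2-fold higher in both (0.538%), 1 was lower in both (0.134%) and 1 was apart in opposite directions (0.134%).

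Over all genes of the pairs, the folds of the 2 clusters had little relation. Among the 744 genes, 191 were above 0 on the log2 scale in both clusters (25.7%), 211 below 0 in both (28.4%) and 342 of opposite sign (46%). Pearson's r between the clusters' log2 folds was 0.12 in the pairs and 0.40 over all cells without matching, across these genes, which share cells and are not independent replicates.

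The 4 genes higher in both clusters were Klf6, Atf3, Jun and Fos. All 4 encode transcription factors of the immediate early response, which cells turn on within minutes of growth factors, stress or tissue dissociation. Jun and Fos pair to form AP-1, Atf3 belongs to the related ATF family of basic leucine zipper proteins, and Klf6 is a Krüppel-like zinc finger factor. Together with 20 others they form a list of immediate early and dissociation stress genes used below.

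**Figure D2:**
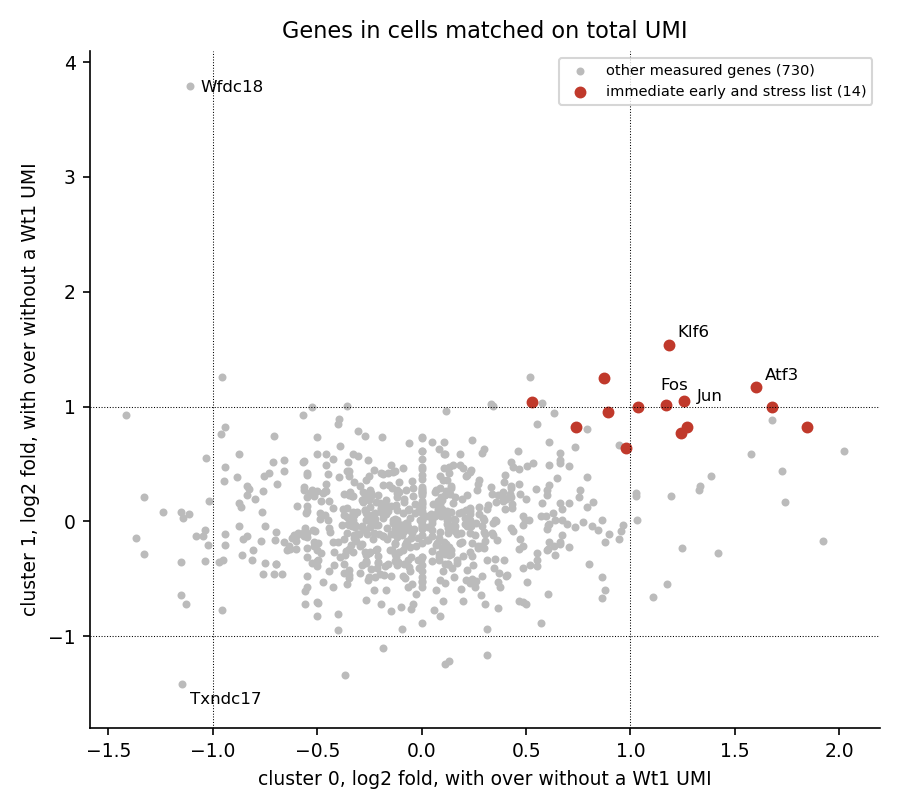
Log2 fold, Wt1-positive over Wt1-negative cells of like total UMI, of the 744 genes measured in both clusters: cluster 0 on the horizontal axis, cluster 1 on the vertical axis, dotted lines at 2-fold. Red points are the 14 measured genes of the immediate early and stress list, all above 0 on both axes; grey points are the other 730 genes, which scatter around 0, with Txndc17 low on both axes and Wfdc18 apart.

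Fos had the highest level of the 4. In cluster 0 it stood at 42.6 UMI per 10000 in Wt1-positive cells (37.5 to 48.2) and 18.9 in Wt1-negative cells (15.5 to 22.7), with medians per cell of 27.5 and 9.57. All 20 Wt1-positive cells held a Fos UMI, against 13 of the 20 Wt1-negative cells, and the Wt1-positive cell was the higher in 15 of 20 pairs. In cluster 1 it stood at 18.5 (16.1 to 21.2) with Wt1 and 9.10 (7.43 to 11.0) without. There the Wt1-positive cell was higher in 17 pairs and lower in 14 of 39.

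Jun stood at 32.1 UMI per 10000 with Wt1 (27.7 to 37.1) and 13.4 without (10.6 to 16.7) in cluster 0, a ratio of 2.40 (1.83 to 3.17), and was higher in 14 and lower in 3 of 20 pairs. In cluster 1 it stood at 12.1 (10.1 to 14.3) and 5.77 (4.46 to 7.34), and was higher in 15 and lower in 11 of 39 pairs. In both clusters single cells of either side overlapped widely: Wt1-negative cells reached 49.1 and 33.9 UMI per 10000.

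Atf3 stood at 13.2 UMI per 10000 with Wt1 (10.4 to 16.5) and 4.29 without (2.77 to 6.33) in cluster 0. It had a UMI in 12 of 20 Wt1-positive and 7 of 20 Wt1-negative cells. In cluster 1 its levels were 4.67 (3.50 to 6.10) and 2.01 (1.27 to 3.02), in 11 and 6 of 39 cells. In cluster 1, then, Atf3 came from few cells, and 1 Wt1-positive cell held 19 of its 53 UMI.

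Klf6 stood at 13.4 UMI per 10000 with Wt1 (10.6 to 16.7) and 5.83 without (4.04 to 8.15) in cluster 0, and was higher in 12 and lower in 3 of 20 pairs. In cluster 1 it stood at 4.49 (3.34 to 5.90) and 1.49 (0.87 to 2.38), the largest ratio of the 4 there at 3.02 (1.72 to 5.58). It was higher in 14 and lower in 5 of 39 pairs.

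The 4 genes lie on 4 chromosomes, and the 250 bases before their starts are shown because these genes were higher together. The sequences are RefSeq promoters of GRCm38.p6, written in the gene's direction. Capitals mark the letters TGACGT or their reverse complement ACGTCA (the core of a site for cAMP response factors), or TGACATCA (a site known for Jun and ATF pairs).
Fos: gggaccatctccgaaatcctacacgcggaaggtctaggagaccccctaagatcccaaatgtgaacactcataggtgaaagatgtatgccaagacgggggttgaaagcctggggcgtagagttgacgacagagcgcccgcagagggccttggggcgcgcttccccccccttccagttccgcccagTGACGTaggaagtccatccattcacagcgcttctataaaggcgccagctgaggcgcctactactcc
Jun: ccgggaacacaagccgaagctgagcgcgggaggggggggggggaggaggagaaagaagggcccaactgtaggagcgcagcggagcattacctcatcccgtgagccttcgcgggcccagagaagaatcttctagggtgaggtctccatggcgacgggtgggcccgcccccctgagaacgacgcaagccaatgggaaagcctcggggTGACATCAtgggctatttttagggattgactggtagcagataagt
Atf3: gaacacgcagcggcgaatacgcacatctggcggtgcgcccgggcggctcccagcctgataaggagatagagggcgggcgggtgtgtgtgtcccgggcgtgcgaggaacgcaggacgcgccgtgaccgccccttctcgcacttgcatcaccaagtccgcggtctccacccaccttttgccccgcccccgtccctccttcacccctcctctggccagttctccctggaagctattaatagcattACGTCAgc
Klf6: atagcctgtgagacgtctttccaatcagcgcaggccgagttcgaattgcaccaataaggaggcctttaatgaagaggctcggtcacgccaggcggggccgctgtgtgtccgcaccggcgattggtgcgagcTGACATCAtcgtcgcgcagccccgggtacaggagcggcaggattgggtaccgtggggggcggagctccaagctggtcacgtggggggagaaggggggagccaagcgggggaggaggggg

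These stretches are chr12:85473640-85473889 (plus strand) for Fos, chr4:95052223-95052472 (minus strand) for Jun, chr1:191183334-191183583 (minus strand) for Atf3 and chr13:5861239-5861488 (plus strand) for Klf6. TGACGT was found at -66 in Fos and at -8 in Atf3, and TGACATCA at -45 in Jun and at -119 in Klf6. On either strand, TGACGT is in 6.47% and TGACATCA in 2.93% of the 32851 mouse promoters of that length. The full cAMP site TGACGTCA, which contains the first of these, is in 1.55% of promoters, the AP-1 site TGACTCA in 4.46%, and GCGGGGGCG, a site bound by EGR factors and WT1, in 2.57%. None of these 3 is in the 4 windows. Of the 12 genes named below as higher in both clusters, 11 had a promoter in the set. Among these 11, TGACGTCA was in 2, GCGGGGGCG in 2 and TGACTCA in 0. The motifs shown were picked after the sequences were seen, and a match is a description of the letters only.

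The next genes by the same measure were of the same kind. Jund and Fosb, partners in AP-1, lay just under 2-fold in cluster 1, with log2 folds of 0.999 and 0.997. Jund stood there at 25.8 UMI per 10000 with Wt1 and 12.9 without, and Fosb at 1.496 and 0.70. For Jund in cluster 1, 1 Wt1-positive cell held 88 of the 293 UMI on its side. It was seen in 31 Wt1-positive and 34 Wt1-negative cells of 39, and was higher in 20 and lower in 15 pairs. In cluster 0 Jund stood at 25.1 and 12.2. Junb had a ratio of 1.86 in cluster 0 and 1.96 in cluster 1. Fosb in cluster 1 rested on 17 UMI in 4 Wt1-positive cells and 8 UMI in 4 Wt1-negative cells.

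Feedback genes that shut the response down went the same way. Dusp1, a phosphatase of MAP kinases, stood at 11.3 UMI per 10000 with Wt1 and 3.09 without in cluster 0, and at 4.40 and 2.45 in cluster 1. Zfp36, which marks mRNAs for decay, stood at 6.35 and 2.57 in cluster 0 and at 2.55 and 1.399 in cluster 1. Ppp1r15a, a stress gene that restores translation and is not in the list, stood at 10.6 and 3.26 in cluster 0 and at 2.02 and 1.05 in cluster 1. Ier2, an immediate early gene, stood at 8.24 and 4.46 in cluster 0 and at 3.87 and 1.57 in cluster 1. Csrp1, a LIM domain protein, stood at 2.75 and 1.54 in cluster 0 and at 1.144 and 0.61 in cluster 1. These complete the 12 genes highest by the smaller fold of the 2 clusters, and 10 of the 12 are in the list. At 1.5-fold, 22 genes were higher in both clusters (2.96%), and 13 of them are in the list, of which 14 members were measured in both clusters.

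**Figure D3:**
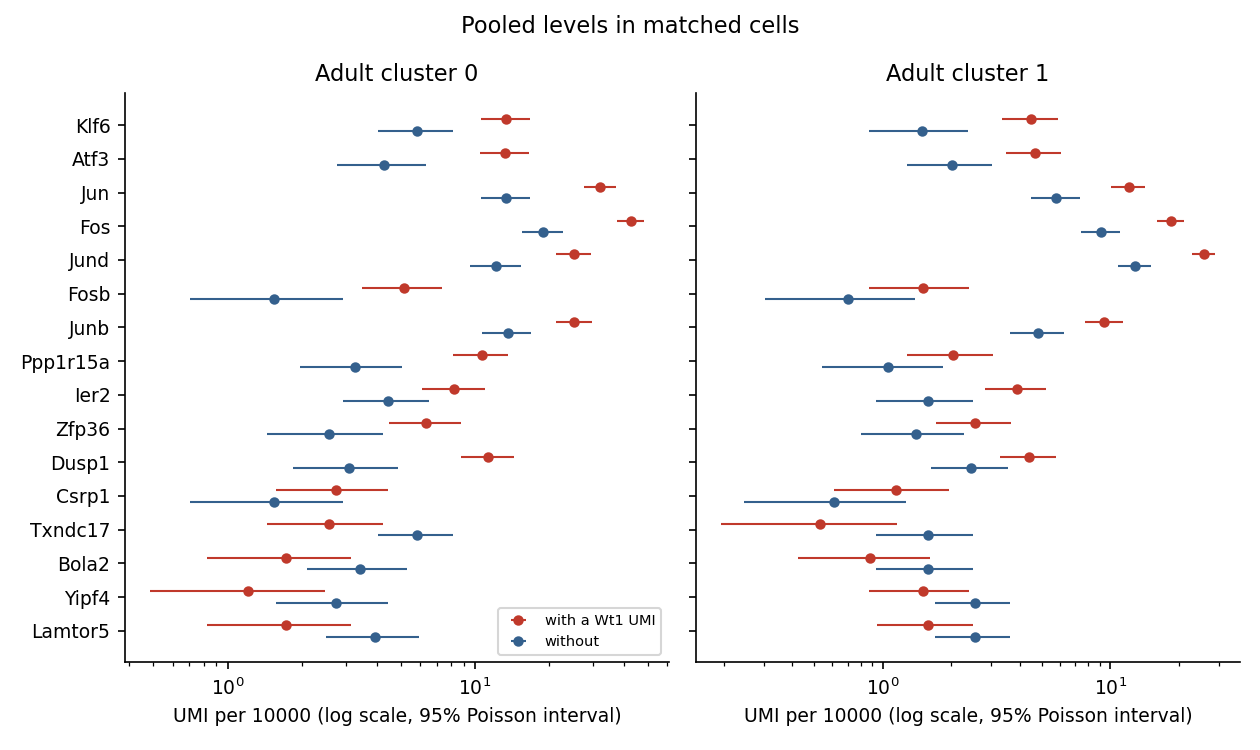
Pooled levels (UMI per 10000, log scale) with 95% Poisson intervals of the 12 genes higher and the 4 lower in both clusters, in pairs of like total UMI: 20 pairs in cluster 0 and 39 in cluster 1. Red is Wt1-positive, blue Wt1-negative; the red point lies right of the blue in the upper 12 genes and left of it in the lower 4, and intervals overlap for most genes of low count.

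Over the whole list, 16 of 24 genes were measured in cluster 0. Of these, 11 were at least 2-fold higher with Wt1 and 0 lower, with a median log2 fold of 1.22, against -0.04 over all 843 genes. In cluster 1, 18 were measured, 7 were at least 2-fold higher and 1 lower, with a median of 0.98, against 0.01 over all 2068 genes. The gene that was lower was the heat shock gene Hspa1a, with 5 UMI in Wt1-positive and 19 in Wt1-negative cells. The list was drawn up with earlier results of these data known, so its direction is no independent evidence.

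The summed list makes plain how unevenly cells carried it. In cluster 0 it took 246.5 UMI per 10000 with Wt1 (233.9 to 259.5) and 110.4 without (102.1 to 119.3). Per cell it ran from 26.5 over a median of 235.2 to 499.0 in Wt1-positive cells, and from 0 over a median of 58.2 to 333.0 in Wt1-negative cells. The Wt1-positive cell was the higher in 16 of 20 pairs. The groups overlapped: some Wt1-negative cells stood above the Wt1-positive median, and some Wt1-positive cells stood below the Wt1-negative one.

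In cluster 1 the pooled level of the summed list was 116.0 UMI per 10000 with Wt1 (109.8 to 122.5) and 61.4 without (56.9 to 66.1). Here the typical cell differed little: the medians were 38.4 and 33.9, and the Wt1-positive cell was higher in 20 of 39 pairs. A single Wt1-positive cell of 11506 UMI held 28.0% of that side's UMI for the list. It carried 13 Wt1 UMI, the most in the cluster, and merged number 1, as did the Wt1-negative cell of 12124 UMI paired with it. Without cells of minor merged numbers the ratio in cluster 1 was 1.503, against 1.89 with them.

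**Figure D4:**
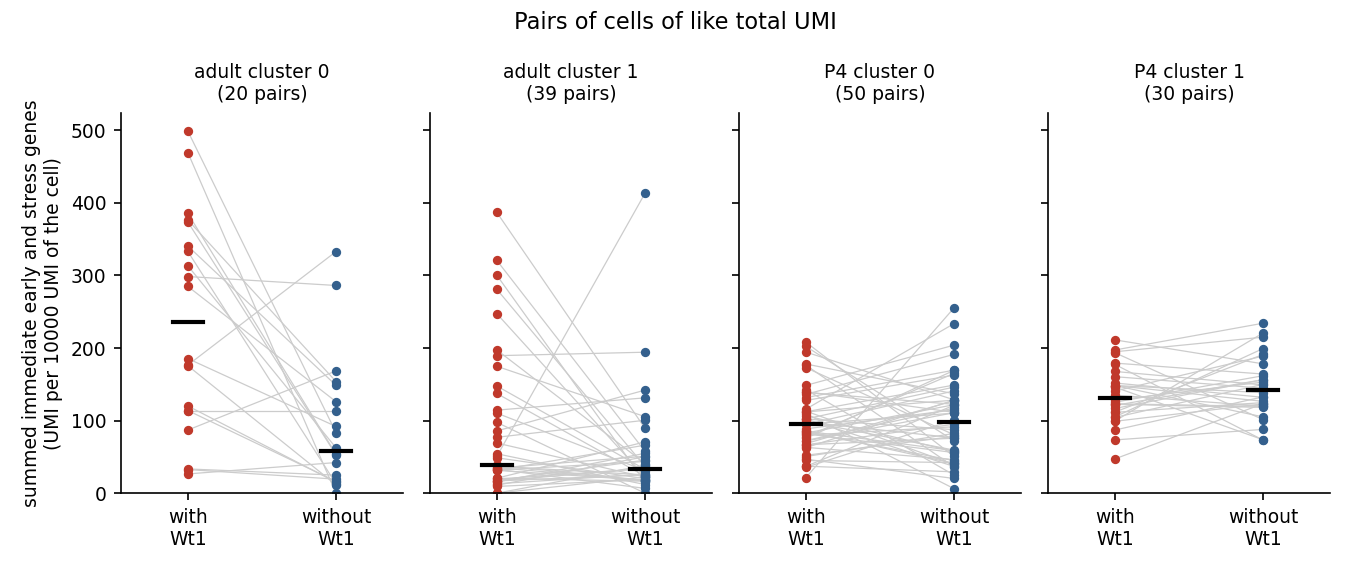
Summed immediate early and stress genes per cell (UMI per 10000 UMI of the cell) in pairs of like total UMI, Wt1-positive (red, left) joined to Wt1-negative (blue, right), with black bars at the medians. Some deep pairs of P4 cluster 1 are less alike in total UMI, the widest at 14087 with Wt1 and 8773 without. Adult cluster 0 has medians of 235.2 and 58.2 with 16 of 20 pairs higher in the Wt1-positive cell, adult cluster 1 has 38.4 and 33.9 with 20 of 39, and at P4 24 of 50 and 14 of 30 pairs were higher.

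The size of the difference depended on which cells were paired. With every cell kept and levels weighted over the 5 depth bins, the summed list stood at 213.3 UMI per 10000 with Wt1 and 124.5 without in cluster 0, a ratio of 1.71, and at 87.4 and 64.1 in cluster 1, a ratio of 1.36. Repeated barcodes have a second column in the deposited table, and when those columns were used the pairs changed: 8 of 20 pairs in cluster 0 and 20 of 39 in cluster 1 stayed as they were. With those pairs the ratio was 1.13 in cluster 0 (12 of 19 pairs higher) and 1.97 in cluster 1 (21 of 40), no gene was 2-fold higher in both clusters, and Klf6 in cluster 0 had a log2 fold of -0.12. With the original pairs and the second columns' counts the ratios were 2.20 and 1.91. Across all settings tried the summed list was higher with Wt1 in both clusters, by ratios of 1.13 to 2.72 in cluster 0 and 1.33 to 1.97 in cluster 1.

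Single genes went with the sum under the weighting by bins, though 0 of the 4 then reached 2-fold in both clusters. Fos then had ratios of 1.93 in cluster 0 and 1.62 in cluster 1, Jun 1.48 and 1.398, Klf6 1.97 and 2.71, and Atf3 2.73 and 1.21. Of these, Atf3 in cluster 1 was the smallest, at 2.67 UMI per 10000 with Wt1 and 2.21 without. With all cells kept, 2789 genes were measured in both clusters, and 23 were at least 2-fold higher in both with weighting (0.825%), of which 2 are in the list and 0 among the 4. Without matching 25 were (0.896%), of which 3 are in the list and 1 among the 4.

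Levels by the number of Wt1 UMI ran differently in the 2 clusters. Over all cells of cluster 0, the summed list stood at 119.3 UMI per 10000 in cells with 0 Wt1 UMI, 191.0 with 1, 194.6 with 2 and 182.6 with 3 or more. In cluster 1 it stood at 58.8, 75.0, 78.7 and 110.0. So cluster 0 was level from 1 Wt1 UMI on, and cluster 1 was highest at 3 or more. The 27 cells of cluster 1 with 3 or more include the cell of 11506 UMI and merged number 1, where the list stood at 320.7. They also include a cell of 4772 UMI and merged number 6, where it stood at 375.1. The level without these cells was not computed. Depth rose along with the number of Wt1 UMI, from a median of 1273 to 5575.5 UMI in cluster 0 and from 1004 to 4654 UMI in cluster 1, and its part in these values was not tested here.

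**Figure D5:**
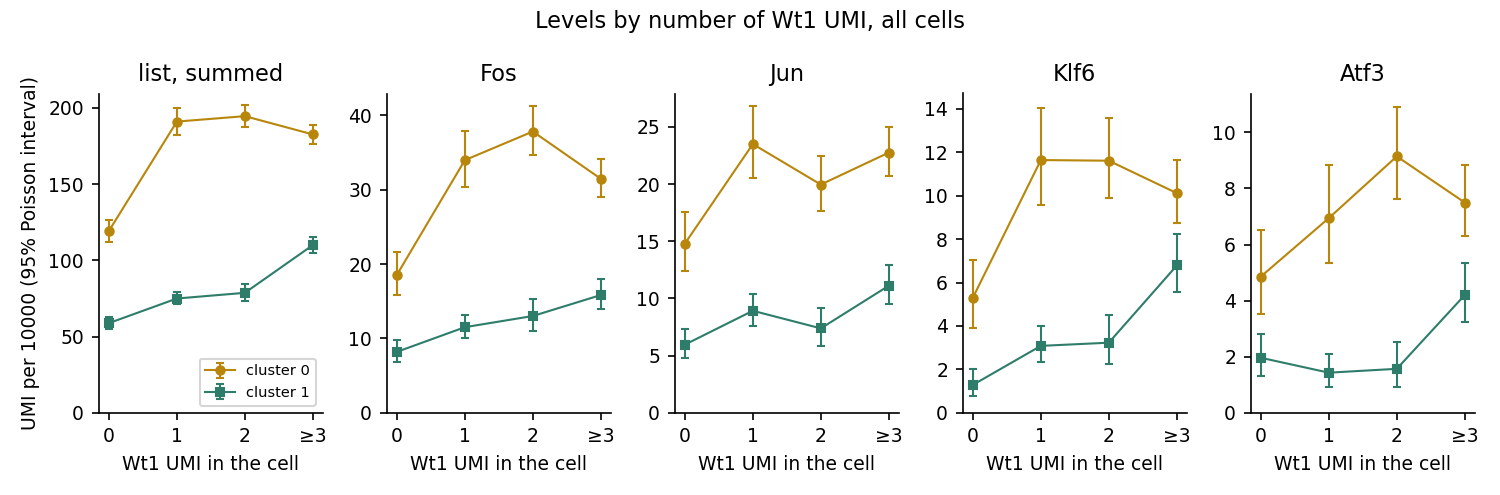
Pooled levels (UMI per 10000, vertical axes from 0, 95% Poisson intervals) of the summed immediate early and stress list and of Fos, Jun, Klf6 and Atf3 in all cells with 0, 1, 2 and 3 or more Wt1 UMI. In cluster 0 (ochre circles) the summed list stands at 119.3 in cells with 0 and between 182.6 and 194.6 in the others, and in cluster 1 (green squares) it goes from 58.8 to 110.0.

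The same comparison within clusters 0 and 1 of the P4 library did not show the difference. P4 clusters were numbered separately from the adult ones, and their marker levels differed. Foxj1 stood at 0.12 UMI per 10000 with Wt1 and 0.21 without in P4 cluster 1, against 7.04 and 6.82 in adult cluster 1. Ovgp1 stood at 1.02 and 1.32 in P4 cluster 0, against 42.9 and 63.8 in adult cluster 0. With 50 pairs of P4 cluster 0, the summed list stood at 94.0 UMI per 10000 with Wt1 and 102.8 without, a ratio of 0.91 (0.87 to 0.96), and with 30 pairs of P4 cluster 1 at 134.8 and 144.9, a ratio of 0.93 (0.89 to 0.98). Fos stood at 11.5 and 13.4 in P4 cluster 0 and at 13.0 and 15.8 in P4 cluster 1. Klf6 stood at 3.83 and 4.97, and at 4.72 and 6.61. Depth was less alike in the pairs of P4 cluster 1, with 252126 UMI on the Wt1-positive and 237607 UMI on the Wt1-negative side. The P4 cells were deeper (median 7154.5 UMI with Wt1 and 7143 without in the pairs of P4 cluster 0), and age and library cannot be told apart.

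On the lower side, the gene past 2-fold in both clusters was Txndc17, a thioredoxin-like protein. It stood at 2.58 UMI per 10000 with Wt1 (1.44 to 4.25) and 5.83 without (4.04 to 8.15) in cluster 0, and at 0.53 (0.19 to 1.15) and 1.57 (0.93 to 2.49) in cluster 1. Only 15 and 34 UMI in cluster 0 and 6 and 18 UMI in cluster 1 lie behind these values. It was lower in 9 and higher in 8 of 20 pairs of cluster 0. With all cells weighted by bin its ratios were 0.54 and 0.57. Bola2, an iron-sulfur cluster protein, Yipf4, a Golgi membrane protein, and Lamtor5, a subunit of the Ragulator complex on lysosomes, were the others at least 1.5-fold lower in both clusters (4 genes, 0.538%), and their counts ran from 7 to 29 UMI a side.

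Genes named for 1 cluster at a time were chosen after their values were seen, and no difference between the clusters was tested. In cluster 0, 11 of 13 measured secreted products of the lining were lower with Wt1 in the pairs. Of the 13, 0 were at least 2-fold higher and 5 lower, where 3.8% of all genes were as much lower. Their median log2 fold was -0.79, against -0.04 over all 843 genes. The chaperone gene Clu stood at 8.59 UMI per 10000 with Wt1 and 23.7 without, and Dcpp3, a secreted protein of the mouse oviduct, at 1.72 and 7.37. Dcpp3 was seen in 3 and 5 of 20 cells, and 1 Wt1-negative cell held 19 of the 43 UMI on its side. Wfdc18 stood at 43.6 and 94.1, and 1 Wt1-negative cell held 222 of the 549 UMI on its side. The summed list stood at 133.4 with Wt1 and 249.3 without, a ratio of 0.54, which was 0.68 with all cells weighted by bin and 0.90 over all cells without matching. Ovgp1 was lower with Wt1 in 12 of 20 pairs, at 42.9 against 63.8, and over all cells of cluster 0 it was higher, at 59.9 against 53.1.

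In cluster 1 the secreted list had 5 measured members, of which 1 was at least 2-fold higher. This was Wfdc18, the gene apart in opposite directions, at 11.0 UMI per 10000 with Wt1 and 0.70 without, and 115 of its 125 UMI came from the Wt1-positive cell of 11506 UMI. The genes lowest with Wt1 in cluster 1 rested in the same way on the Wt1-negative cell of 12124 UMI: it held 160 of 180 UMI of Spp1 (osteopontin), 50 of 55 of Akr1cl and 45 of 56 of Cited2. In the matched cells, folds of these genes largely describe that pair of cells. Over all cells of cluster 1 without matching, Wfdc18 stood at 8.57 UMI per 10000 with Wt1 and 1.02 without. It was seen there in 21 of 105 and 8 of 78 cells, and the highest cell held 123 of the 381 Wt1-positive UMI.

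Hormone and Notch genes gave small counts. Esr1, the estrogen receptor, stood at 0.86 UMI per 10000 with Wt1 and 2.57 without in cluster 0, from 5 and 15 UMI, and 4 of 20 steroid genes were measured there, 1 of them at least 2-fold lower. The summed steroid list stood at 25.6 with Wt1 and 40.0 without in cluster 0, and at 13.6 and 19.9 in cluster 1. The ratios of 0.64 and 0.68 were 0.69 and 0.76 with all cells weighted by bin, and 0.93 and 0.94 over all cells without matching. Cited2 is in this list, and in cluster 1 the Wt1-negative cell of 12124 UMI held 45 of its 56 UMI on that side. Both measured Notch pathway genes, Notch2 and Hes1, were at least 2-fold higher with Wt1 in cluster 0, where 4.15% of all genes were, and Notch2 was seen in 7 Wt1-positive and 6 Wt1-negative cells of 20. The summed pathway stood at 17.003 and 7.202 UMI per 10000 there; in cluster 1 none of 3 measured was, at 4.84 and 4.37. Of 4 measured genes known as WT1 partners or targets in other tissues, Cdkn1a and Gas1 were at least 2-fold higher in cluster 0, Cdkn1a with 18 and 4 UMI in 7 and 2 cells. Gas1 had 15 and 5 UMI in 3 and 4 cells, and 13 of the 15 came from 1 cell. In that cluster 4.15% of all genes were as much higher. In cluster 1 none of 7 was.

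Among genes of cell identity, the secretory markers measured in cluster 0, 4 of 8, were lower with Wt1 in the pairs. All 4 measured were below 0 on the log2 scale, with a median of -0.68, and 1 of them, Agr2, was at least 2-fold lower. Sox17 and Pax8, with too few UMI to count as measured, went the other way. Sox17 had 12 UMI with Wt1 and 6 without. The summed secretory list stood at 63.9 UMI per 10000 with Wt1 and 97.9 without, of which Ovgp1 was 42.9 and 63.8. The ratio of the sums, 0.65 in the pairs, was 0.72 with all cells weighted by bin and 0.97 over all cells. Of 13 measured multiciliated markers in cluster 1, 1 (Hydin, an axonemal protein) was at least 2-fold higher, with a median log2 fold of 0.05. The summed multiciliated list stood at 164.3 UMI per 10000 with Wt1 and 152.6 without. None of 6 measured epithelial markers in cluster 0 and 1 of 7 (Krt18) in cluster 1 was past 2-fold. Pax8, a regulator of the Müllerian duct, had 6 UMI with Wt1 and 3 without in cluster 0, and Pax2, often set against Wt1 as a marker of the other end of the oviduct, had 0 UMI on either side. In cluster 1 Pax2 had 0 UMI with Wt1 and 1 without.

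Of 28 lists in all, 6 had no measured member, 7 had measured members and none past 2-fold, and 15 had at least 1 past it. The stress list was the 1 list with members at least 2-fold higher in both clusters. Members at least 2-fold lower in both clusters were found in 2 lists, the steroid genes (Esr1 in cluster 0, Cited2 in cluster 1) and the extracellular matrix genes (Fn1 in cluster 0, Sparc and Spp1 in cluster 1). In cluster 1 these rest on the Wt1-negative cell of 12124 UMI, which also held 21 of the 22 UMI of Sparc on its side.

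Markers of cells outside the epithelium were low on both sides. Of the mesothelial markers, Upk3b had 0 UMI on either side in cluster 0 and 1 UMI on each side in cluster 1, and Msln stood at 1.20 with Wt1 and 3.60 without in cluster 0. Msln was seen in 5 Wt1-positive and 4 Wt1-negative cells of 20, and 1 Wt1-negative cell held 12 of the 21 UMI on its side. Over all cells of cluster 0 it stood at 2.23 with Wt1 and 2.65 without. The summed stromal list stood at 1.55 UMI per 10000 with Wt1 and 1.03 without in cluster 0, and at 1.496 and 1.137 in cluster 1, and the smooth muscle list at 2.40 and 1.89, and 2.90 and 1.75. In cells it ran from 0 to at most 21.5 for smooth muscle and 17.6 for stroma in cluster 0. Leukocyte markers stood at 0 and 0.34 in cluster 0 and at 0.26 and 0 in cluster 1, with Ptprc at 0 in all. Markers of the stromal, smooth muscle, endothelial, leukocyte, granulosa and erythroid lists, without the mesothelial ones, were also counted per cell. Of all cells, 37 of 80 Wt1-positive and 8 of 50 Wt1-negative cells in cluster 0, and 42 of 105 and 9 of 78 in cluster 1, had a UMI of 2 or more such markers. These cells were not matched on depth, and the median totals of the sides were 4970 and 1273 UMI in cluster 0 and 3811 and 1004 in cluster 1. Without the cells with 2 or more such markers, no gene was 2-fold higher in both clusters in the pairs. The ratio of the summed stress list was then 1.70 in cluster 0 and 1.33 in cluster 1. The part of these markers in the result was not tested.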

How the data were processed

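The authors deposited raw counts of UMI per gene and cell and a cluster number per cell; the submitters' processing notes name Cell Ranger, Seurat 2.3.4 and mm10, without the role of each. Counts were used as deposited, with no doublet caller. The column of the first prefix was taken for a repeated barcode. A level is the pooled count over the pooled total, per 10000. Within each cluster, cells with and without a Wt1 UMI were paired 1 to 1 by total UMI (without Wt1) inside 5 quantile bins. Folds use a pseudocount of 0.1. Intervals are exact, at 95%. No test was run, because 1 library per age leaves no replicate. Named genes were the 12 in each direction with the largest smaller fold of the 2 clusters, at least 1.5-fold in both, without ribosomal protein, mitochondrial, Gm and Rik genes, plus 8 fixed genes. The members, lists and rules were chosen with earlier results of these data known. Calculations used Python 3.11.15, numpy 2.4.6, pandas 2.3.3 and scipy 1.17.1, tested on simulated data. Positions are from GENCODE on GRCm38.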

Additional observations from a re-analysis of the deposited data

How the results depend on the processing

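The 20 and 39 pairs limit every value. No paired analysis was possible because each age has 1 library, so libraries could not be paired; the pairs here are cells. Counts of genes at least 2-fold higher, lower and apart in opposite directions (4, 1 and 1 as reported) follow, then the log2 ratio of the summed stress list where it moved (1.16 in cluster 0 and 0.92 in cluster 1 as reported). All cells without matching gave 25 higher, 1 lower (not Txndc17) and 7 opposite, with 0.66 and 0.58. With 3 bins 1 was higher. With 2 or more Wt1 UMI against 0, 2 were higher and 2 opposite, with 0.73 in cluster 0. A mean over cells gave 4 higher (1 of the reported 4, Klf6), 0 lower and 0 opposite, with 1.38 and 0.70. Thinning to 1000 UMI gave 0 higher, 0 lower and 2 opposite, with 0.43 in cluster 1. No filter on low values gave 228, 220 and 409, and a filter of 25% gave 0 opposite. The second prefix gave 0, 0 and 2, with 0.18 in cluster 0 and Klf6 reversed there at -0.12. Without cells with 2 or more non-epithelial markers 0 were higher and 1 was lower (not Txndc17), with 0.76 and 0.41. Without the 5% of cells with the most UMI 1 was higher and 0 opposite, with 0.65 in cluster 1. A limit of 1.5-fold gave 22, 4 and 11. The rest were chosen after seeing the data. Matching also on merged number gave 2 higher and 0 opposite, with 0.59 in cluster 1. Main merged numbers alone gave 1, 0 and 0, with 0.59 in cluster 1. Without the cell with the most stress list UMI on each side the counts were 9, 0 and 2, with 1.44 in cluster 0. Cells with at least 2000 UMI gave 3 higher (1 of the reported 4, Atf3) and 3 opposite, with 1.02 in cluster 0. Weighting all cells by bin gave 23, 2 and 10, with 0.78 and 0.45, and with the second prefix 19 higher and 16 opposite, with 0.41 and 0.60, and 0 of the 4 genes are among these 23 or 19. Txndc17 is not among the lower genes of either weighting. The pairs of the first prefix with the second prefix's counts gave 2 opposite. Apart from what each construction shows, the cause was not tested. The share of cells with a Wt1 UMI was 33.0% in cluster 0 and 34.0% in cluster 1 after thinning, and 50.6% and 47.7% without cells with non-epithelial markers. It was 77.6% of the 98 adult cells with merged number 2 and 15.5% of the 84 with merged number 4. Those cells were taken from any adult cluster, not from cluster 0 alone. Of 680 values of single genes under these settings, 644 kept their sign.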

Other observations

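Wt1 was detected at P4 as well, in 70.2% of the 168 cells of P4 cluster 0 and 32.6% of the 95 cells of P4 cluster 1, at pooled levels of 1.53 and 0.68 UMI per 10000. In the P4 pairs Foxj1 stood at 1.04 UMI per 10000 with Wt1 and 0.43 without in P4 cluster 0, from 39 and 16 UMI, and at 0.12 and 0.21 in P4 cluster 1, from 3 and 5 UMI. Pax2 had 2 UMI with Wt1 and 8 without in P4 cluster 0, and 9 on each side in P4 cluster 1.

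The 2 cells of adult cluster 1 that weighed most on its folds differed from each other in more than Wt1. The Wt1-positive cell held the summed epithelial markers at 99.9 UMI per 10000 and the Wt1-negative cell at 11.5. Summed multiciliated markers stood at 55.6 and 44.5, below the pooled 164.3 and 152.6 of their sides, and the summed stress list at 320.7 and 57.7.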
